A study of Homo sapiens with 18 samples.

Results

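The genes described here are the 4 tropomyosins *TPM1*, *TPM2*, *TPM3* and *TPM4*, the 3 heavy chains of non-muscle myosin II *MYH9*, *MYH10* and *MYH14*, the regulatory light chains *MYL9* and *MYL12A*, and the kinase *MYLK*. They were chosen by symbol and make up 10 of the 21944 genes listed in the authors' deposited table. The samples were human pancreatic progenitors at day 19 of differentiation, reseeded with accutase on fibronectin (FN) or on laminin-411 (LN411) and collected 3, 6 or 24 h later, with 3 samples in each of 6 groups and 18 in all. The labels give the growth protocol as that of NGN3-GFP cells, an embryonic stem cell line derived from SA121 with a reporter for *NEUROG3*, while naming the line HUES4 in other fields. For this sequencing, the paper's figure legend names the NGN3-GFP line. Both arms were dissociated and reseeded in the same way, and the coating of the well is the difference that the labels give. The study asked which genes change between contact with LN411 and the choice of an endocrine fate.

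The value analysed for each gene was the mean normalized count, which the authors averaged over all samples after dividing read counts by size factors. The table has no other measurement that was used here: its remaining values are the authors' own comparisons of LN411 with FN, and differences between matrices or times are therefore not reported. Rows of the same gene for 3, 6 and 24 h carried equal means, with a largest relative gap of 4.89e-07. All 10 genes had a row at each of the 3 times. Since the mean pools all samples, it carries no error between replicates, and the depth of single libraries is unknown. The means sum to 53217584 over the listed genes. Levels of different genes were set in order per kilobase of gene length, which was the number of bases covered by the gene's annotated exons unless another length is named. Mean normalized counts are given beside them as deposited, and grow with gene length. Neighbours in any order of levels below could not be tested against each other.

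Tropomyosins are coiled-coil dimers that lie along actin filaments and govern which motors and severing proteins can bind them. Each of the 4 genes gives several isoforms through alternative promoters or exons. Non-muscle myosin II is a motor of paired heavy chains, each of which carries an essential and a regulatory light chain, and it pulls on actin filaments once the regulatory light chain is phosphorylated. In epithelia it sets the tension of the cell cortex and of cell-matrix adhesions.

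The stretch that the kinases act on is shown for the regulatory light chains, because *MYL9* and *MYL12A* differ more in their bases than in this site. Each line gives 60 coding bases of the reference transcript, 5′ to 3′, with the codons of the phosphorylated threonine and serine in capitals. *MYL12B*, the close neighbour of *MYL12A*, was added for comparison. The windows lie on the plus strand of GRCh38 at chr20:36544912-36544971 for *MYL9*, chr18:3253272-3253331 for *MYL12A* and chr18:3272926-3272985 for *MYL12B*, each within a coding exon.
MYL9: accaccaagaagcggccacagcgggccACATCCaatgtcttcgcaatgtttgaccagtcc
MYL12A: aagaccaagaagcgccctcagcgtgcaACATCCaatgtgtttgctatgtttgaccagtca
MYL12B: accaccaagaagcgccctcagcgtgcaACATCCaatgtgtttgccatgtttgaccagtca
The threonine codon ACA and the serine codon TCC were the same in the 3 genes. They are codons 19 and 20 of *MYL9* and *MYL12B* and codons 18 and 19 of *MYL12A*, counting the start codon as 1. *MYL9* and *MYL12A* differed at 10 of the 60 bases, *MYL9* and *MYL12B* at 8, and *MYL12A* and *MYL12B* at 3.

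With the exon length, 9 of the 10 genes lay above the median gene of the table, *MYLK* being the exception. With this length, 7 lay at or above the 90th percentile. *MYH10* and *MYH14* lay below that percentile with the exon length but above it with some other measures, given below. The median level of the 10 genes was 2666 counts per kilobase, against 76.2 over all listed genes, a ratio of 35.0. Of the 21944 listed genes, 15355 are annotated as protein-coding. Among those alone, *MYH10*, *MYH14* and *MYLK* lay at percentiles 77.7, 74.7 and 10.9, and the other 7 at 93.3 or above. Together the 10 genes held 281370 of the mean normalized counts, or 0.529% of all. With the exon length, *MYH9* was the highest, 1021-fold above *MYLK* per kilobase. *MYLK* was the lowest of the 10 with every length used, but the highest was *MYL12A* with the longest annotated transcript, at 19457 counts per kilobase, and *TPM1* with the 1 transcript per gene that the annotation marks as its reference, at 25176. In bulk RNA, fewer cells that express a gene and less RNA per cell cannot be told apart, so that these levels describe the culture as a whole.

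**Figure D1:**
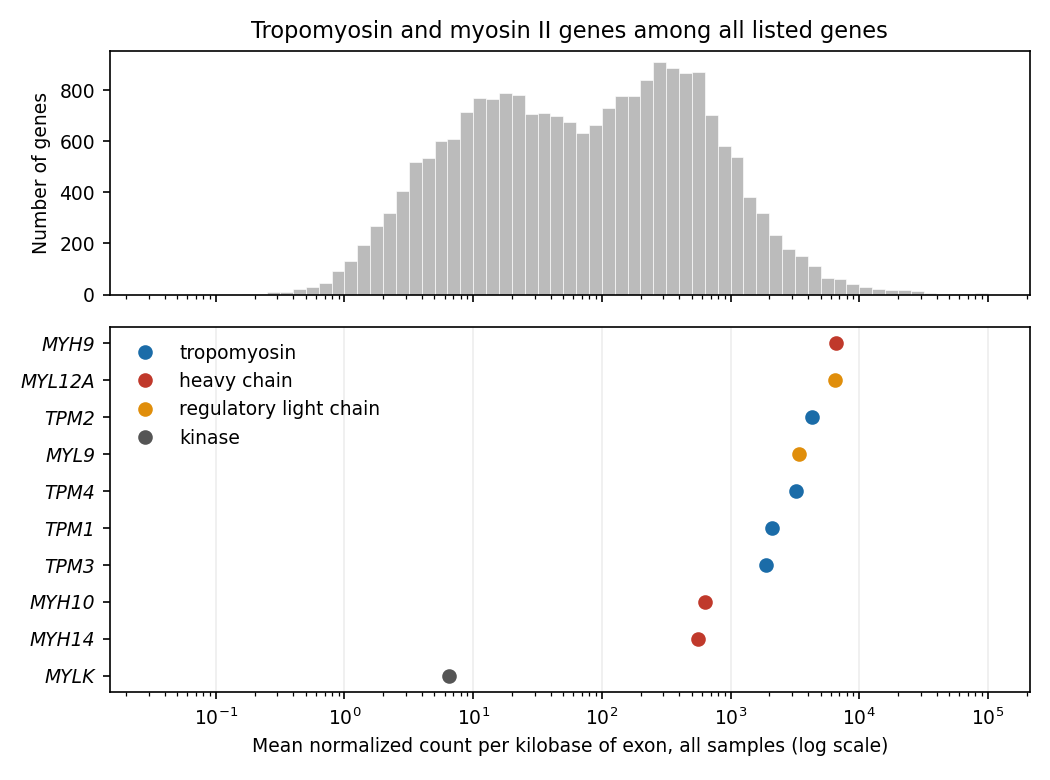
Mean normalized count per kilobase of exon on a log scale, for all listed genes as a histogram (top, number of genes on the vertical axis) and for each tropomyosin and myosin II gene as a point coloured by role (bottom). Each point is the authors' mean over all 18 samples and has no error bar; 9 genes lie between 554 and 6614 counts per kilobase, and *MYLK* lies apart at 6.48.

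*MYH9* (ENSG00000100345) encodes heavy chain IIA, which forms stress fibres and drives contraction of spreading cells. It lies on the minus strand of chromosome 22 of GRCh38 from 36281280 to 36388010. Its mean normalized count of 112670 was 0.212% of all counts. Per kilobase, *MYH9* had 6614 counts, at rank 217 and percentile 99.0.

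*MYH10* (ENSG00000133026, chromosome 17, minus strand, 8474207 to 8631376) encodes heavy chain IIB, the slower motor that holds tension for longer. The gene had a mean normalized count of 20646, or 631 counts per kilobase, at percentile 84.0. Its percentile was 93.2 with the longest transcript, 94.1 with the reference transcript and 98.3 without scaling. With the median length of protein-coding transcripts it was 83.2. *MYH14* (ENSG00000105357, chromosome 19, plus strand, 50188186 to 50310542) encodes heavy chain IIC, which is found in many epithelia. Its mean normalized count was 5755, or 554 counts per kilobase, at percentile 81.9. For *MYH14*, the other percentiles in the same order were 82.9, 80.5, 90.7 and 63.3. Neither gene was close to *MYH9*.

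Of the summed level of the 3 heavy chains, *MYH9* made up 84.8%, *MYH10* 8.10% and *MYH14* 7.10%. *MYH9* exceeded *MYH10* by 10.5-fold and *MYH14* by 11.9-fold per kilobase. The order *MYH9*, *MYH10*, *MYH14* was the same with every gene length tried and without scaling. *MYH9* over *MYH10* ranged between 5.46-fold without scaling and 30.1-fold with the median length of protein-coding transcripts. *MYH10* over *MYH14* was 1.14-fold with the exon length and between 2.35-fold and 3.59-fold otherwise.

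*TPM1* (ENSG00000140416, chromosome 15, plus strand, 63042620 to 63071915) encodes stress fibre and muscle tropomyosins. There were 30639 mean normalized counts, or 2084 counts per kilobase, at percentile 95.8. *TPM2* (ENSG00000198467, chromosome 9, minus strand, 35681992 to 35690056) encodes beta-tropomyosin. It had 13619 mean normalized counts, or 4279 counts per kilobase, at percentile 98.3.

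*TPM3* (ENSG00000143549, chromosome 1, minus strand, 154155308 to 154194648) gives short cytoplasmic isoforms in most cells. *TPM3* had a mean normalized count of 28496, or 1883 counts per kilobase, at percentile 95.2. *TPM4* (ENSG00000167460, chromosome 19, plus strand, 16067021 to 16103002) is expressed widely outside muscle. It had 40193 mean normalized counts, or 3248 counts per kilobase, at percentile 97.5. With the exon length, the levels of the 4 tropomyosins lay within 2.27-fold of each other, and with the reference transcript within 6.24-fold. Their percentiles ran from 93.3 to 99.5 over all the lengths and gene sets used for ranking.

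Of the summed tropomyosin level, *TPM2* held 37.2%, *TPM4* 28.3%, *TPM1* 18.1% and *TPM3* 16.4%. This order rested on the length chosen. With the reference transcript of each gene, *TPM1* came first with 44.2% and *TPM2* held 20.1%, and with the median length of protein-coding transcripts *TPM3* came first with 31.7%. The exons annotated for *TPM1* cover 14700 bases over 39 transcripts, while its reference transcript has 1217. For *TPM3*, the same figures are 15130 bases, 27 transcripts and 7064 bases. *TPM2* has 10 transcripts, which cover 3183 bases, and a reference transcript of 1190. Counts are per gene, so that the isoforms of a tropomyosin could not be separated. *TPM4* varied least, between 21.4% and 35.6% of the family.

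*MYL12A* (ENSG00000101608, chromosome 18, plus strand, 3247481 to 3256236) encodes a regulatory light chain present in most cells. With a mean normalized count of 19535, it stood at 6443 counts per kilobase and percentile 99.0. *MYL9* (ENSG00000101335, chromosome 20, plus strand, 36541497 to 36551447) encodes the regulatory light chain typical of smooth muscle and of contractile non-muscle cells. It had 9614 counts, or 3424 per kilobase, at percentile 97.7.

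Together with *MYL12B*, which is not one of the 10 genes and had 18036 counts or 10377 per kilobase, the regulatory light chains divided into 51.3% *MYL12B*, 31.8% *MYL12A* and 16.9% *MYL9*. With the other lengths and without scaling, *MYL12A* was the highest, between 41.4% and 52.1%. *MYL9* was the lowest of the 3 with every length and without scaling, between 8.77% and 20.4%.

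**Figure D2:**
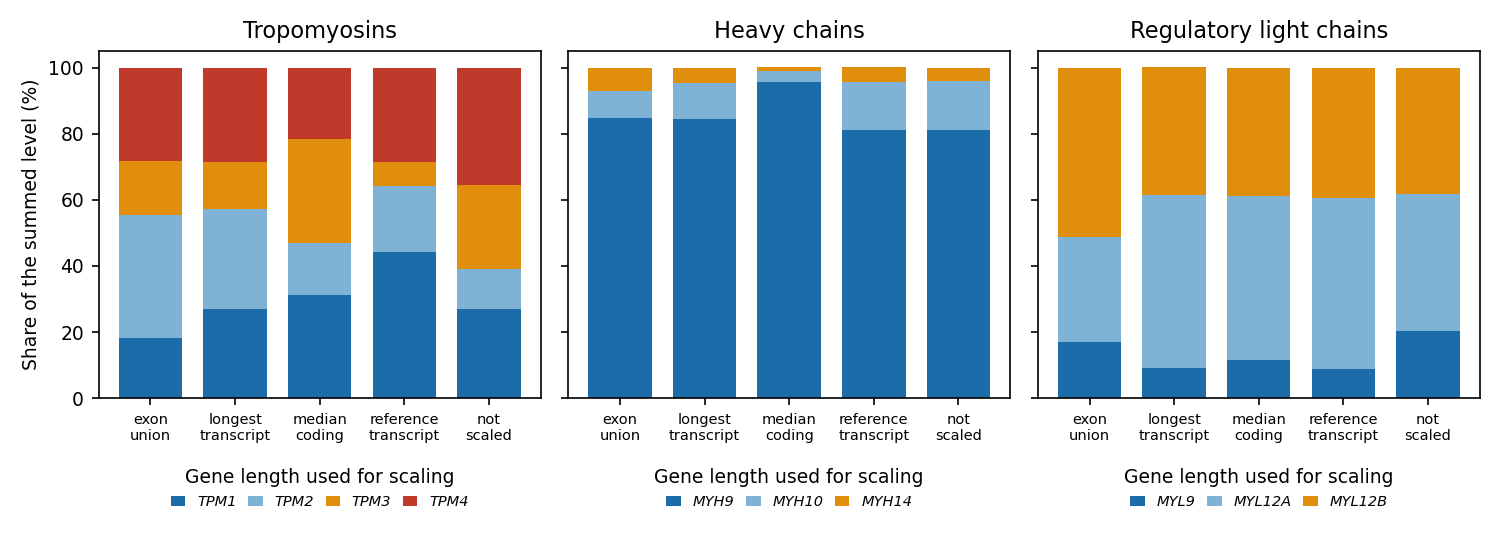
Share in percent of each gene in the summed level of its family, as stacked bars for the tropomyosins, the heavy chains and the regulatory light chains, with 5 ways of scaling by gene length along the horizontal axis. *MYH9* holds between 81.0% and 95.7% of the heavy chains in each bar, while *TPM1* varies between 18.1% and 44.2% of the tropomyosins.

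*MYLK* (ENSG00000065534) encodes the calcium- and calmodulin-dependent myosin light chain kinase, which phosphorylates the serine shown above. It lies on the minus strand of chromosome 3 from 123610049 to 123884332 and has 57 annotated transcripts, including the short protein telokin, which lacks the kinase domain. Its mean normalized count was 204, or 6.48 per kilobase, at percentile 14.9. Its annotated exons cover 31537 bases. With the reference transcript of 10113 bases, the level was 20.2 per kilobase, and over all lengths and gene sets tried its percentile lay between 7.91 and 46.8. *MYLK* remained the lowest of the 10 genes in each of these.

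The other kinases that act on the regulatory light chain were taken from a list, of which 6 genes are described, and 5 of these lay above the median gene. *ROCK1* and *ROCK2*, which phosphorylate the light chain and inhibit its phosphatase, had 398 and 420 counts per kilobase. *DAPK3*, a light chain kinase that needs no calcium, had 1168, and *CDC42BPB*, a kinase controlled by CDC42, had 1114. With the exon length, the only one used for these kinases, these 4 all lay above *MYLK* and below each of the 4 tropomyosins. *CDC42BPA*, a relative of *CDC42BPB*, had 176. The lowest of the 6 was *CIT*, the citron kinase of dividing cells, with 29.8.

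The phosphatase that removes the phosphate is built of a catalytic subunit and a targeting subunit. *PPP1CB*, the catalytic subunit, had 1853 counts per kilobase. Its targeting subunits *PPP1R12C*, *PPP1R12A* and *PPP1R12B* had 580, 466 and 147, and all 4 genes lay above the median gene. Of the essential light chains, *MYL6* had 10220 counts per kilobase and *MYL6B* 635.

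Among 6 genes of tropomyosin binding proteins, *CALD1*, which encodes caldesmon, was the highest with 3751 counts per kilobase. With the exon length, the only one used for these genes, this was in the range of the tropomyosins. The tropomodulins *TMOD1* and *TMOD3*, which cap the pointed ends of actin filaments, had 571 and 327, and *TMOD2* had 10.4. *LMOD1*, the leiomodin of smooth muscle, had 15.5. *TMOD4* was not analysed here.

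**Figure D3:**
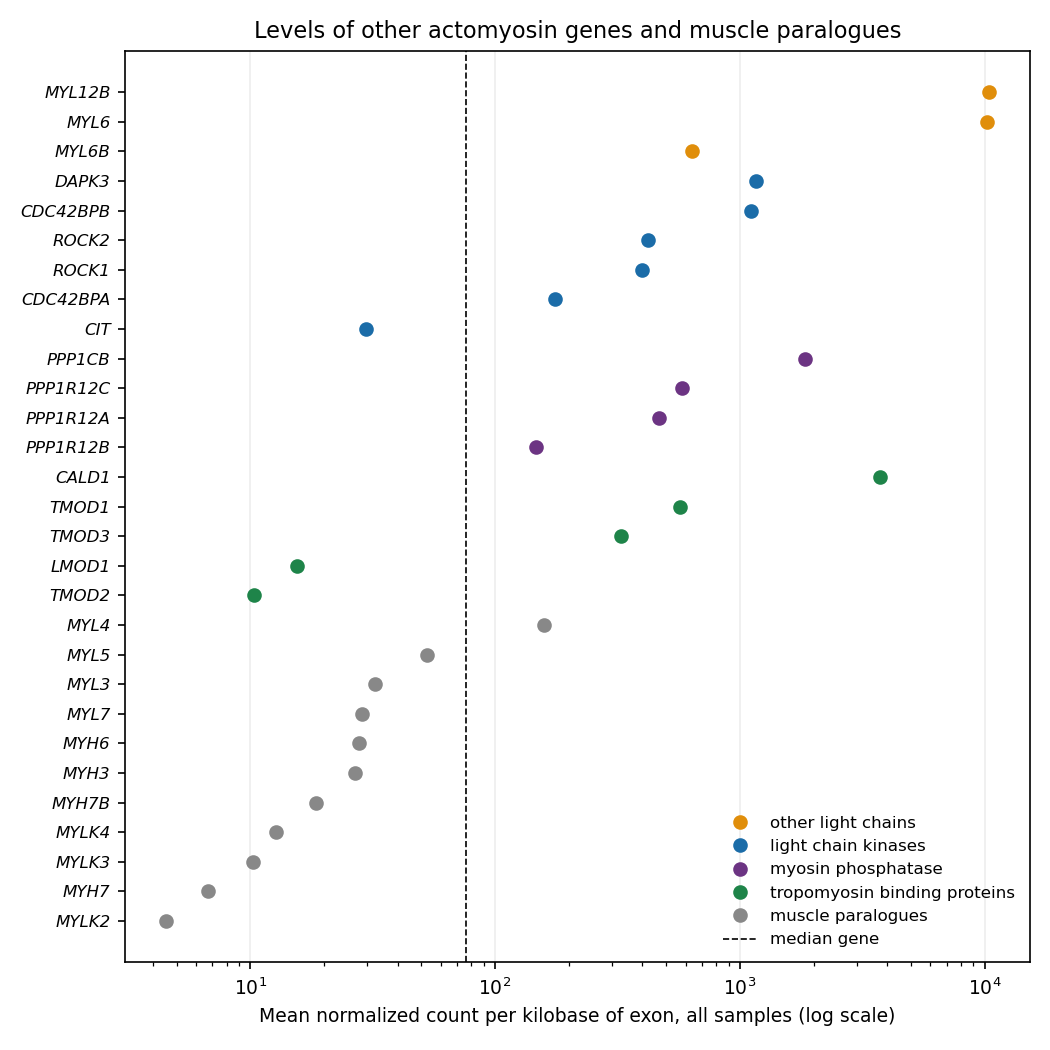
Mean normalized count per kilobase of exon on a log scale for the other light chains, light chain kinases, myosin phosphatase subunits, tropomyosin binding proteins and muscle paralogues, 1 point per gene, with the median of all listed genes (76.2) as a dashed line. Of the 11 muscle paralogues with a value, 10 lie left of the line.

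Of 18 sarcomeric and smooth muscle paralogues of the same families, 11 had a value, with a median of 26.9 counts per kilobase. *MYL4*, the atrial and fetal essential light chain, was the highest with 158 and the only one above the median gene. The heavy chains *MYH3*, *MYH6*, *MYH7B* and *MYH7* lay between 6.71 and 27.9. The smooth muscle heavy chain *MYH11* was not analysed here. The other 3 kinases of the family, *MYLK2*, *MYLK3* and *MYLK4*, had 4.54, 10.3 and 12.7 counts per kilobase of exon. With this length, 2 of them lay above *MYLK* at 6.48. Without scaling, their mean normalized counts were 13.5, 110 and 84.8, all below the 204 of *MYLK*.

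The labelled cell type was checked against its markers. *PDX1* had 4969 counts per kilobase, *SOX9* 5259, *GP2* 33603 and *NKX6-1* 773, and 9 of 11 progenitor markers lay above the median gene, the exceptions being *PTF1A* with 7.64 and *CPA1* with 36.2. Of 5 endocrine markers, *CHGA* with 1426 and *NEUROG3* with 289 lay above the median gene, while *INS* had 12.7, *NEUROD1* 8.67 and *GCG* 6.87. The mean normalized counts of these last 3 were 8.32, 71.2 and 16.3, and *INS* had a row at 1 time and *GCG* at 2. Of 9 smooth muscle and mesenchyme markers, 8 had a value, in a range of 2.60 to 1063 with a sum of 1743, and *DES* and *LMOD1* were among the lowest. *MYOCD*, *COL1A1* and *PDGFRA* were the 3 above the median gene. The 4 striated muscle markers with a value lay between 6.71 and 64.8, and the endothelial markers *PECAM1* and *CDH5* had 9.69 and 0.851. *DES* and *CDH5* rested on mean normalized counts of 6.47 and 5.12, each with a row at 1 time. The part of muscle, mesenchyme or endothelial cells in the levels of *MYL9* and *TPM2* was not tested.

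Reads that match several places could be left out of a count, so each reference transcript was cut into all words of 75 bases, and words that also occur in a transcript of another locus were counted. No word of *TPM1*, *TPM2*, *MYH10*, *MYH14* or *MYL9* was shared. The highest share was 9.62% in *TPM4*, mostly with the processed pseudogene *TPM4P2*, which has its own mean normalized count of 53.1, and with *TPM4P3*, at 36.9. *MYL12A* shared 1.47% of its words, *TPM3* 0.730%, *MYLK* 0.448% and *MYH9* 0.285%. Words of 50 bases raised the share to 23.5% for *TPM4* and 12.2% for *MYL12A*, and words of 100 bases gave 3.49% and 0%. The read length is not given in the sources used here.

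**Figure D4:**
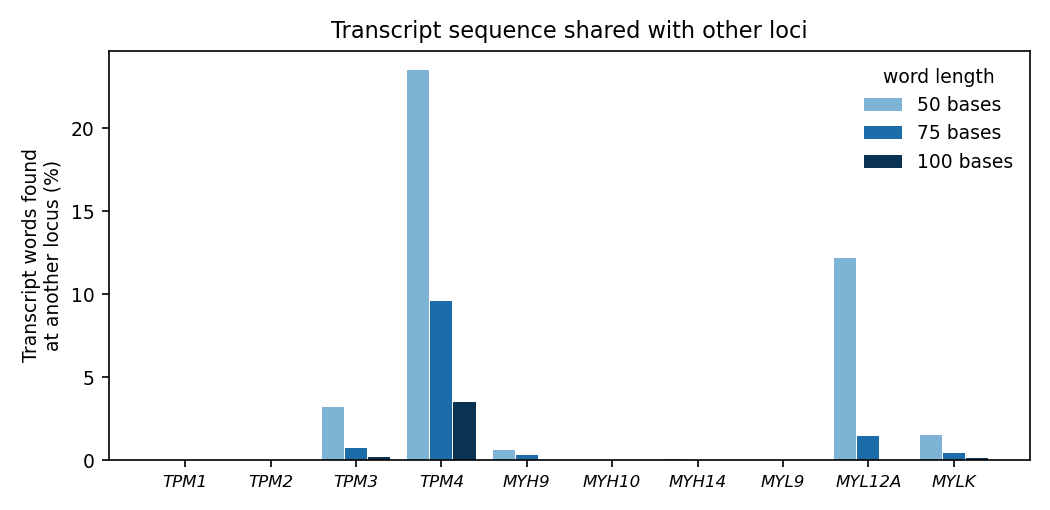
Percentage of all words of 50, 75 or 100 bases in the reference transcript that also occur in a transcript of another locus, for each of the 10 genes. The bars of *TPM4* are the highest at each word length, at 23.5%, 9.62% and 3.49%, and 5 genes have a share of 0% at 75 bases.

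Between the genes of a family, coding sequences were less alike than for the pair *MYL12A* and *MYL12B*, which were identical at 491 of 513 aligned bases, or 95.7%. Their longest shared coding run, bases 367 to 443 of *MYL12A* and 370 to 446 of *MYL12B*, is shown because a read that lies wholly within it matches both genes.
shared run: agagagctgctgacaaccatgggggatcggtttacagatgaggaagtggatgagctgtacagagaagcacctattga
It has 77 bases, against longest shared runs of 26 bases for *MYL9* with *MYL12A* and 19 for *MYL9* with *MYL12B*. *MYL9* was identical to *MYL12A* at 79.9% of aligned coding bases and to *MYL12B* at 81.4%. The 6 pairs of tropomyosins were 78.2% to 81.4% identical, with longest shared runs of 20 to 38 bases. Among the heavy chains, *MYH9* was 76.6% identical to *MYH10* and 77.2% to *MYH14*, and *MYH10* was 72.2% identical to *MYH14*.

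Exons of other annotated genes overlapped those of 8 of the 10 genes in GENCODE v44. The largest overlap was that of *TPM1-AS*, which covers 2645 exon bases of *TPM1* on the opposite strand, and had a mean normalized count of 31.5 beside 30639 for *TPM1*. *MYLK-AS1* covers 612 exon bases of *MYLK* and had 85.1 counts beside 204 for *MYLK*. *MYL12-AS1* covers 175 exon bases of *MYL12A* and had 7.11 counts. *NDEL1*, a neighbour of *MYH10* with 3097 counts, shares 72 exon bases with it. The strand setting of the counting is not given in the sources used here.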

How the data were processed

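Polyadenylated RNA of 18 samples was sequenced. Alignment to GRCh38 and counting per gene were done by the authors with STAR 2.7.2d and an older GENCODE annotation, followed by DESeq2 1.34.0, per the paper's methods and the submitters' processing notes. The value used is the deposited mean normalized count, a signal obtained by the authors as the mean of size-factor scaled counts over the samples. The other columns hold the authors' log2 fold changes of LN411 against FN with standard errors, Wald statistics, p-values and adjusted p-values. They were not used, and the planned count test of LN411 against FN could not be run on pooled means.

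Genes were matched by Ensembl identifier to GENCODE v44 on GRCh38, which gave lengths and positions for 99.6% of listed genes. Levels were divided by the length of the union of exons in kilobases. A percentile is the share of the other listed genes with a lower level. The reference transcript was MANE Select or, without one, the Ensembl canonical transcript. Coding sequences were aligned globally (match 2, mismatch -3, gap opening -5, extension -2) with Biopython 1.88. Shared words were counted on both strands, leaving out genes at the same locus. Python 3.11.15, numpy 2.4.6, pandas 2.3.3 and matplotlib 3.10.9 were used, and the calculation of lengths, shares and percentiles was tested on simulated data. The genes and the lists were chosen with earlier results of these data known. The genes named are the 10 chosen genes, lists of actomyosin genes, muscle paralogues and cell type markers, and genes that overlap one of the 10 or share sequence with it. Some listed genes are not reported here.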

Additional observations from a re-analysis of the deposited data

How the results depend on the processing

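No paired analysis was possible because the values are means over all samples, and for the same reason no replicate could be left out and no count model, other normalization or filter on counts was run. Identity of amino acids was not computed, since no protein table was used here, and identity of coding bases took its place. The values depend on the gene length. With the longest transcript in place of the exon union, the shares of *TPM1*, *TPM2*, *TPM3* and *TPM4* were 27.1%, 30.1%, 14.1% and 28.7%. Those of *MYH9*, *MYH10* and *MYH14* were 84.3%, 11.0% and 4.70%, and those of *MYL9*, *MYL12A* and *MYL12B* 9.24%, 52.1% and 38.7%. With the reference transcript, the shares in the same order were 44.2%, 20.1%, 7.09% and 28.6%, then 81.2%, 14.4% and 4.47%, then 8.77%, 51.8% and 39.4%. Without scaling they were 27.1%, 12.1%, 25.2% and 35.6%, then 81.0%, 14.8% and 4.14%, then 20.4%, 41.4% and 38.2%. The median length of protein-coding transcripts, chosen after seeing the data, gave 31.2%, 15.6%, 31.7% and 21.4%, then 95.7%, 3.18% and 1.13%, then 11.5%, 49.7% and 38.8%. This measure counts short annotated fragments as transcripts. The percentiles of the 9 genes other than *MYLK* stayed at or above 63.3 over all 6 alternatives, with the lowest for *MYH14* at the median protein-coding length. Dividing identical bases by the shorter coding sequence changed 11 of 12 identities in the digits given. The largest shift was from 72.2% to 69.9%, for *MYH10* and *MYH14*. Other word lengths changed 13 of 22 shares of words, which include those of *MYL12B*. The depth of single libraries is unknown and sets no stated limit on these means.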

Other observations

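*MYOCD*, the coactivator of SRF that is best known from smooth and cardiac muscle, had a mean normalized count of 9434, or 1063 per kilobase, at the 90.6th percentile. It was the highest of the 8 smooth muscle and mesenchyme markers with a value, above *COL1A1* with 454 counts per kilobase and *PDGFRA* with 90.9, and the other 5 lay below the median gene. Those 5 were *ACTA2* with 53.1, *COL3A1* with 47.4, *PDGFRB* with 15.9, *LMOD1* with 15.5 and *DES* with 2.60. *MYL9*, *TPM2* and *CALD1*, which smooth muscle also expresses, are not on that marker list and were higher than *MYOCD*. *LIN28A*, an RNA-binding protein of pluripotent cells, had 10333 counts, or 2599 per kilobase, at the 96.8th percentile, while *POU5F1* and *NANOG* were not analysed here.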
